A study of Mus musculus with 30 samples.

Results

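Leukaemia inhibitory factor (LIF) signalling was followed through 6 genes: Lif, the secreted ligand; Lifr, its receptor chain; Il6st, which encodes the shared receptor chain gp130; Jak1, the receptor-bound kinase; Stat3, the transcription factor; and Socs3, the feedback inhibitor. They were taken by gene symbol and were represented by 8 of the 26423 probes and 6 of the 19082 named genes on a mouse whole-genome oligonucleotide array. The study made pluripotent stem cells from mouse somatic cells with small molecules and compared them with embryonic stem cells, factor-induced lines and the starting cells. It comprised 30 samples in 5 sets of 7, 9, 4, 4 and 6 samples, and the authors normalized each set separately.

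The 11 chemically induced lines (CiPSC) were each a single established line. CiPS34 (cocktail VC6TFMP+Z), CiPS50 (VC6F+Z), CiPS21 (VC6TFDBS+Z), CiPS45 (FC6+Z) and the CiPS control line (VC6TF+Z) came from mouse embryonic fibroblasts (MEF). CiPS WT1 and WT2 (both VC6TFMPS+Z) came from wild-type MEF. MNF CiPS7 (VC6TFS+Z) and MNF CiPS1 (VCT6FMDBR+Z) came from neonatal fibroblasts (MNF), and MAF CiPS3 (VC6TFDM+Z) came from adult lung fibroblasts (MAF). ADSC CiPS2 (VC6TFMPS+Z) came from adipose-derived stem cells (ADSC) by its title and line name, although another label names lung fibroblasts as its source. Treated MEF were sampled once each at day 12 (VC6TF) and at days 20 and 32 (both VC6TF+Z). There were 2 OSKM iPSC lines and 2 SKM-FSK iPSC lines from MEF, the second pair with the treatment code F. The 5 embryonic stem cell (ESC) samples were 4 of line R1 and 1 of line TT2, and the 7 untreated somatic samples were MEF1, MEF2, MEF3, WT MEF, MNF, MAF and ADSC. All established pluripotent lines were kept on mitomycin-treated MEF feeders in ESC medium, and somatic cells grew in medium with serum. Whether LIF was in either medium, and the mouse strain or any transgene of the cells not called wild type, are not stated in the sources used here.

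LIF binds the receptor chain Lifr, which pairs with gp130. Janus kinases bound to the pair phosphorylate gp130 and Stat3, and phosphorylated Stat3 dimers enter the nucleus and switch on genes that hold mouse stem cells in the naive state. Socs3 is induced by Stat3, binds gp130 and Janus kinases, and damps the signal. Stat3 activity depends on phosphorylation, which an RNA measurement does not see.

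Each column of the table appears to be the mean of 2 or 3 arrays, and nothing states whether the arrays, or the repeated R1 samples, came from separate cultures, so p-values measure only the spread between these samples. The median intensity was 109.5 to 358.8 in the samples, and 18.5 to 18.7% of probes lay under 16 in the samples of set 5, against at most 0.847% in the samples of the other sets. Sets 1 to 5 held values for 13989, 15437, 16339, 21717 and 26397 probes. Percentiles among the probes of a sample are therefore not on a common scale between sets. All 9 tested markers of pluripotent cells were higher in CiPSC than in somatic cells, and 13 of 15 markers of fibroblasts and feeder cells were lower. The summed intensity of the fibroblast markers was 0.509 to 27.6% of the somatic mean of the set in CiPSC, 0.69 to 2.69% in OSKM iPSC, 11.1 to 12.5% in SKM-FSK iPSC, 0.872 to 13.9% in ESC and 76.3 to 126% in the somatic samples. These sums rest on 4 measured markers in set 1, 7 in set 2, 15 in set 3, 17 in set 4 and 18 in set 5. Groups that lie in different sets therefore cannot be ranked by them. RNA came from whole cultures, in which fewer cells of a type and less RNA per cell cannot be told apart.

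Promoter sequences of 4 of the genes are shown because 3 of them, Stat3, Il6st and Jak1, were low together in pluripotent lines, while Socs3 is a classical direct target of Stat3. Each is a window of 300 bases around the start site of the gene from RefSeq (GRCm38.p6), printed 5′ to 3′ on the gene's strand. Stat3 lies at chr11:100939491-100939790 (minus strand), Il6st at chr13:112463820-112464119 (plus strand), Jak1 at chr4:101265174-101265473 (minus strand) and Socs3 at chr11:117969317-117969616 (minus strand). Capitals mark the STAT motif TTCNNNGAA, which reads the same on both strands and was the only motif searched.
Stat3: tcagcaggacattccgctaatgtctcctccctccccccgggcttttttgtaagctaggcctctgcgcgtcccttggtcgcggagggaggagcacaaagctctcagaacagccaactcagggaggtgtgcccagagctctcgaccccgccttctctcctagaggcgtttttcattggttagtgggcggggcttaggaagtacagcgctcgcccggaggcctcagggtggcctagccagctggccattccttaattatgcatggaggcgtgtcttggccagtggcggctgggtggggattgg
Il6st: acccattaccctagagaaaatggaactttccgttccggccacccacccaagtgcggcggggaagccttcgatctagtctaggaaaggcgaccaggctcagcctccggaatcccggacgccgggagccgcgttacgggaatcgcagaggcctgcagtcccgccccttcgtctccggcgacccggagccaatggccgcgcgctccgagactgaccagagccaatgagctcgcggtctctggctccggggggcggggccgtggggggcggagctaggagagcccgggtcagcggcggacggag
Jak1: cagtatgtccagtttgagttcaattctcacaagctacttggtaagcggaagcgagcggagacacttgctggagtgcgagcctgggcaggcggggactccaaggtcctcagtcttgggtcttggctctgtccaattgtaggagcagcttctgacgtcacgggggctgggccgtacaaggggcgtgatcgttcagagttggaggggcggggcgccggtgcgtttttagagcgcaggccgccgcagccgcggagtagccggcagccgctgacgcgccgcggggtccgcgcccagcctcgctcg
Socs3: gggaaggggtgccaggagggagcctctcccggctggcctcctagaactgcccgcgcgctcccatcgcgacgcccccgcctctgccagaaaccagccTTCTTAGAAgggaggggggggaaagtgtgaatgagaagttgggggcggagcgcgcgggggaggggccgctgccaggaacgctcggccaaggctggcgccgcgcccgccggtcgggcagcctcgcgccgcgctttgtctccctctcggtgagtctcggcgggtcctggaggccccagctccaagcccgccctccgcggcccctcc
The motif occurred in 1 of the 7 windows of the 6 genes (Lifr has 2 windows), at base 97 of the Socs3 window. Of all 32851 promoter windows, 8.30% held it. The match is a description of letters, and no binding was measured here.

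Read by 1 probe per gene, Stat3, Il6st and Jak1 were lower in every established pluripotent sample than in every somatic sample of its set. This held in 20 of 20 samples for Stat3 and Jak1 and in 14 of 14 for Il6st, which was not measured in set 1. A second, dim Jak1 probe (PH_mM_0005303) read 36.25 and 41.1 in CiPS WT1 and WT2, above WT MEF at 33.75. It was below the somatic sample in the other pluripotent samples of sets 3 to 5. Lif, Lifr and Socs3 had no common side. Lif was below all somatic samples of its set in 7 of 14 pluripotent samples and above them in 7, Lifr was below in 3 and above in 5, and Socs3 was below in 3 and above in 13 of 20. Such counts include near ties, as for Lif in CiPS WT2 (79.4) against WT MEF (78.9). Differences were fitted with limma on log2 intensity with group and set as terms, and a call needed both an adjusted p under 0.05 and a change of at least 2-fold. Between CiPSC and somatic cells, 3 of the 6 genes were called, all lower, where 28.0% of 16497 genes were called, 14.8% higher and 13.3% lower. Being below in every set, as these 3 were, was shared by 11.9% of the genes in CiPSC and by 16.3% in ESC, and being above in every set, as 0 of the 6 were, by 10.5% and 16.4%.

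**Figure D1:**
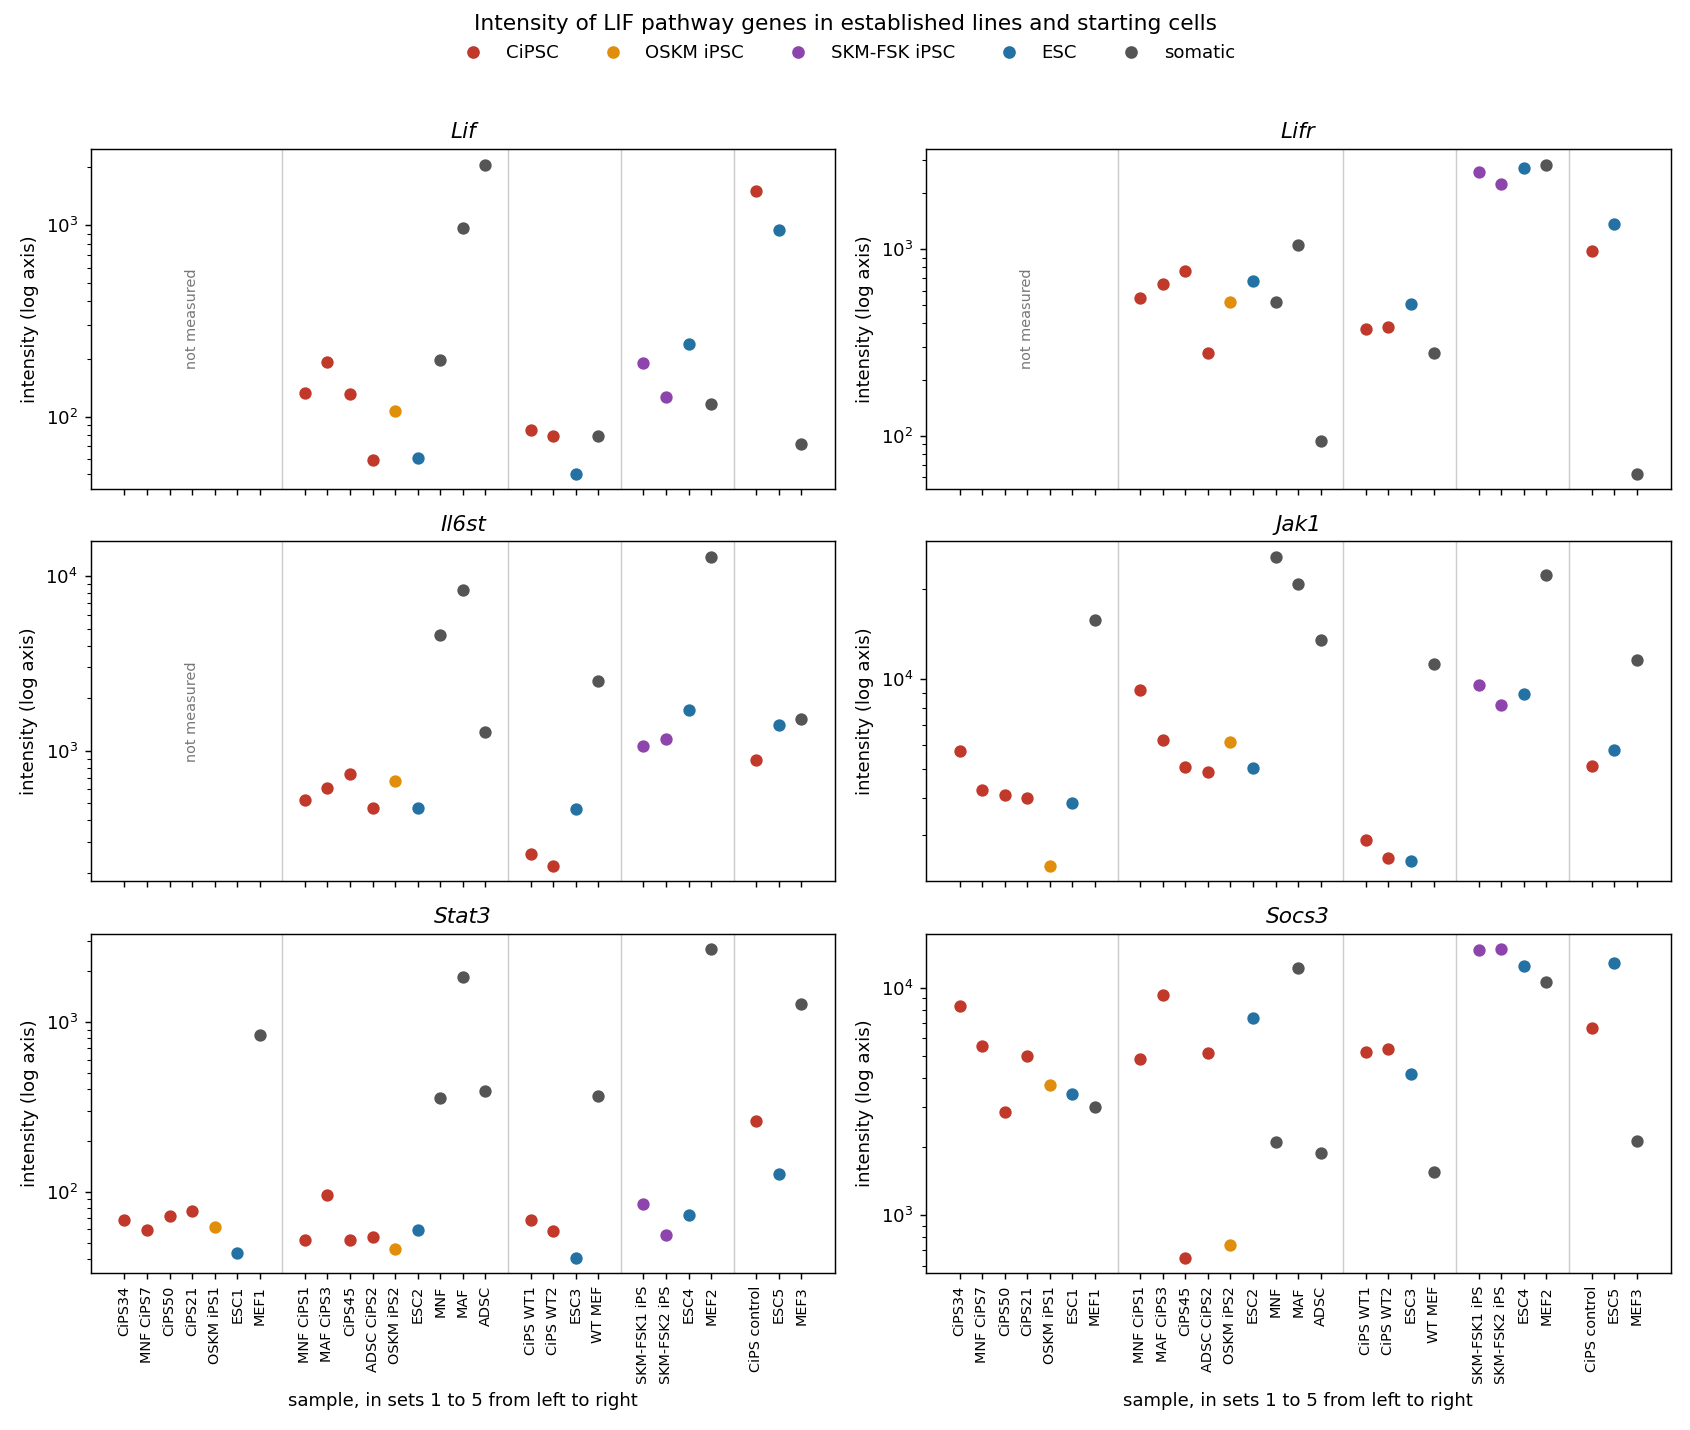
Intensity of each gene (log axis, 1 probe per gene) in the 27 established or untreated samples, 1 point per sample. Samples run in sets 1 to 5 from left to right and are coloured by group. Stat3, Jak1 and Il6st lie below the somatic points of their set in every pluripotent sample, whereas Lif, Lifr and Socs3 change side between sets; levels may be compared only within a set and a gene.

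The ligand Lif changed side between sets. In set 2, Lif (probe PH_mM_0001600) read 133.5 in MNF CiPS1, 193.7 in MAF CiPS3, 130.7 in CiPS45 and 59.7 in ADSC CiPS2, against 198.8 in MNF, 964 in MAF and 2067 in ADSC. All 4 lines lay below the 3 somatic samples there, although MAF CiPS3 and MNF were close. In set 3 the lines CiPS WT1 and CiPS WT2 read 85.1 and 79.4, barely above WT MEF at 78.9. Lif was dim in the pluripotent samples outside set 5, at percentiles 12.9 to 42.4 among all probes, and in WT MEF, at 26.1. In set 5 the CiPS control line read 1507, against 72.1 in MEF3, 20.9-fold higher. The somatic samples themselves spanned a wide range in set 2, where MNF was at 18.5% of their mean and ADSC at 192%.

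The fitted CiPSC difference of Lif from somatic cells was −0.58 ± 0.85 on the log2 scale (SE, n = 7 against 6, adjusted p = 0.602, limma), smaller than its error. The direction rested on set 2. With MEF as the only somatic samples, Lif was 2.01 higher (adjusted p = 0.0376), which passes the call, and with set 2 left out it was 1.93 higher (adjusted p = 0.107). In both fits CiPSC and somatic samples with a Lif value share only sets 3 and 5. The log2 difference was 0.060 in set 3 and 4.39 in set 5, the latter from 1 line against 1 MEF sample. Without ADSC alone it was 0.11 higher.

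Lifr, the chain that gives the receptor its specificity for LIF, differed between sets and was not called. In set 2 its probe PH_mM_0007134 read 550.0 in MNF CiPS1, 651 in MAF CiPS3, 768 in CiPS45 and 277 in ADSC CiPS2, against 519 in MNF, 1048 in MAF and 93.3 in ADSC. The groups overlapped. In set 3 CiPS WT1 and WT2 read 372 and 383, against 277 in WT MEF. In set 5 the CiPS control line read 973, against 62.6 in MEF3, 15.5-fold higher and by far the widest gap of the 3 sets. The fitted CiPSC difference was 0.98 ± 0.58 (SE, n = 7 against 6, adjusted p = 0.196). A second Lifr probe (mMC008554), measured in sets 3 to 5, gave 1.51 ± 0.60 (adjusted p = 0.0778).

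gp130, the signalling chain shared by the whole cytokine family, was measured by 1 Il6st probe (mMR029779) in sets 2 to 5. In set 2 it read 522 in MNF CiPS1, 611 in MAF CiPS3, 738 in CiPS45 and 473 in ADSC CiPS2, against 4615 in MNF, 8361 in MAF and 1281 in ADSC. In set 3 CiPS WT1 and WT2 read 257 and 219, against 2494 in WT MEF. In set 5 the CiPS control line read 879, against 1513 in MEF3. The lines were lower in each set, by 6.35-fold in set 2, 10.5-fold in set 3 and 1.72-fold in set 5.

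The fitted Il6st difference was −2.57 ± 0.43 (SE, n = 7 against 6, adjusted p = 0.00015, limma). An exact permutation of the labels within sets gave p = 0.00476, the smallest that 210 arrangements allow. Il6st stayed called in CiPSC against somatic cells with each set or sample left out, between −2.95 and −2.25 with 1 sample left out. Fibroblast markers were low in the same lines, and their part in the differences of Il6st, Jak1 and Stat3 was not tested.

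Jak1, which phosphorylates gp130-bound substrates, was read by probe PH_mM_0014230. Its percentile among all probes was 81.9 to 95.9 in pluripotent samples and 97.8 to 99.3 in somatic ones, pooled over sets with different probe numbers. In set 1 it read 5754 in CiPS34, 4245 in MNF CiPS7, 4088 in CiPS50 and 3990 in CiPS21, against 15769 in MEF1. In set 2 it read 9163 in MNF CiPS1, 6257 in MAF CiPS3, 5067 in CiPS45 and 4885 in ADSC CiPS2, against 25545 in MNF, 20733 in MAF and 13511 in ADSC. All 8 of these lines lay below every somatic sample of their set. In set 3 CiPS WT1 and WT2 read 2887 and 2516, against 11208 in WT MEF, and in set 5 the CiPS control line read 5115, against 11532 in MEF3.

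The differences of Jak1 were alike in the 4 sets, at 3.53, 3.14, 4.16 and 2.25-fold lower in sets 1, 2, 3 and 5. The fit gave −1.63 ± 0.19 (SE, n = 11 against 7, adjusted p = 7.0e-07). An exact permutation within sets gave p = 0.000952, the smallest that 1050 arrangements allow. The second Jak1 probe (PH_mM_0005303), measured in sets 3 to 5, was dim (31.6 to 172) and gave −0.17 ± 0.41 (adjusted p = 0.768). The 2 probes thus disagree on the call, and nothing in the files says which transcripts each detects.

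Stat3 had the lowest fitted difference of the 6 genes, although within set 3 that of Il6st was lower. In set 1 its probe (PH_mM_0001454) read 68.4 in CiPS34, 59.3 in MNF CiPS7, 71.4 in CiPS50 and 76.9 in CiPS21, against 836 in MEF1. In set 2 it read 51.7 in MNF CiPS1, 95.5 in MAF CiPS3, 51.9 in CiPS45 and 53.7 in ADSC CiPS2, against 359 in MNF, 1835 in MAF and 394 in ADSC. All 8 lines lay below every somatic sample of their set, and in set 2 MAF CiPS3 was the highest line and MAF the highest somatic sample. In set 3 CiPS WT1 and WT2 read 68.5 and 58.5, against 366 in WT MEF, and in set 5 the CiPS control line read 261, against 1274 in MEF3.

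The fitted Stat3 difference was −3.24 ± 0.30 (SE, n = 11 against 7, adjusted p = 1.55e-08), and the exact permutation p was 0.000952, again the smallest possible. Within sets 1, 2, 3 and 5 Stat3 was 12.2, 10.5, 5.78 and 4.89-fold lower. In sets 1 to 4 the percentile of Stat3 among all probes of its sample was 6.08 to 22.7 in pluripotent samples and 50.0 to 82.1 in somatic ones. In set 5 it was 52.3 to 62.9 in the pluripotent samples and 82.6 in MEF3. Set 5 held more probes, and more of them under 16, so its percentiles cannot be set against those of sets 1 to 4. Detection calls were not used here, and how much of the pluripotent reading is background was not tested.

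Socs3, the feedback inhibitor, was above the starting cells in most lines but not in all. In set 1 its probe (mMC010165) read 8300 in CiPS34, 5522 in MNF CiPS7, 2838 in CiPS50 and 4990 in CiPS21, against 2995 in MEF1. In set 2 it read 4879 in MNF CiPS1, 9290 in MAF CiPS3, 649 in CiPS45 and 5182 in ADSC CiPS2, against 2102 in MNF, 12142 in MAF and 1876 in ADSC. CiPS45 stood far below the other 3 lines, and MAF far above the other 2 somatic samples. In set 3 CiPS WT1 and WT2 read 5216 and 5388, against 1553 in WT MEF, and in set 5 the CiPS control line read 6672, against 2120 in MEF3.

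The fitted Socs3 difference was 0.64 ± 0.50 (SE, n = 11 against 7, adjusted p = 0.316) and was not called. With set 2 left out it was 1.28 (adjusted p = 0.0192), which passes the call. The spread between CiPSC lines within sets was widest for Socs3, with an SD of 1.18 on the log2 scale. It was 0.62 for Lif, 0.56 for Lifr, 0.32 for Jak1, 0.31 for Stat3 and 0.26 for Il6st.

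**Figure D2:**
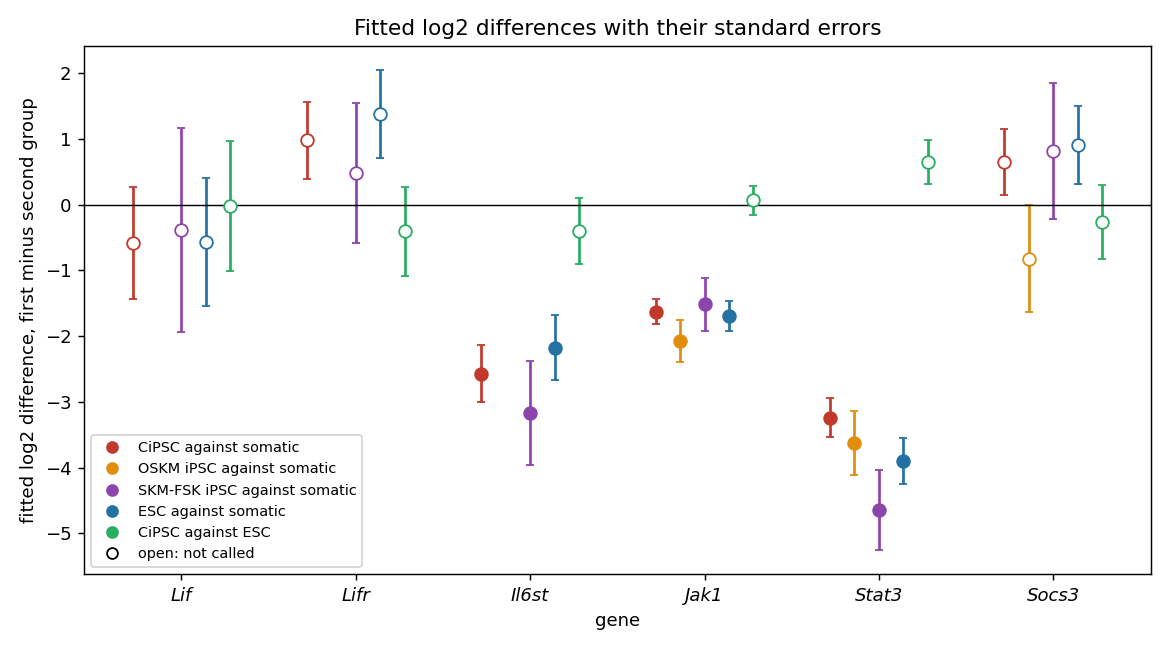
Fitted log2 differences (first group minus second) with their standard errors for each gene and comparison; filled points were called and open points were not. Stat3, Il6st and Jak1 sit below 0 in every comparison with somatic cells in which they were tested, and no gene was called between CiPSC and ESC.

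The ESC samples shared the somatic reference with the CiPSC lines. In ESC against somatic cells the calls were Stat3, Il6st and Jak1, 3 of 6 and all lower, where 29.3% of 16509 genes were called, 15.1% higher and 14.2% lower. Stat3 read 43.3, 59.4, 40.6, 72.7 and 127 in ESC1 to ESC5, and was 9.0 to 37.0-fold below the somatic samples of the same set. Its fitted difference was −3.90 ± 0.35 (SE, n = 5 against 7, adjusted p = 1.72e-08).

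Il6st read 471 in ESC2, 464 in ESC3, 1715 in ESC4 and 1408 in ESC5. It was 7.79, 5.38 and 7.51-fold below the somatic samples in sets 2 to 4, and only 1.07-fold below in set 5, where MEF3 read 1513. The fitted Il6st difference was −2.17 ± 0.49 (SE, n = 4 against 6, adjusted p = 0.00241). Jak1 read 3843, 5027, 2462, 8897 and 5790 in ESC1 to ESC5, with MEF2 of set 4 at 22215, and fitted at −1.69 ± 0.23 (n = 5 against 7, adjusted p = 4.8e-06). The second Jak1 probe gave −0.51 ± 0.38 (adjusted p = 0.320, limma) and was not called.

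The remaining genes were not called in ESC. Lif differed by −0.57 ± 0.97 (adjusted p = 0.667), with 60.9 in ESC2, 50.4 in ESC3, 239 in ESC4 and 947 in ESC5. It was 12.1 and 1.57-fold below the somatic samples in sets 2 and 3, and 2.05-fold above MEF2 (116) in set 4 and 13.1-fold above MEF3 (72.1) in set 5. Lifr read 675, 510, 2725 and 1358 in ESC2 to ESC5. It was 1.82, 1.84 and 21.7-fold above the somatic samples in sets 2, 3 and 5, overlapping them in set 2, and 1.04-fold below MEF2 (2837) in set 4, with a fitted difference of 1.38 ± 0.67 (adjusted p = 0.119). It passed the call with MEF as the only somatic samples (1.78, adjusted p = 0.0461) and without MAF (1.69, adjusted p = 0.0417). Socs3 read 3407, 7326, 4179, 12411 and 12795 in ESC1 to ESC5 and differed by 0.91 ± 0.59 (adjusted p = 0.236), and with set 2 left out it passed at 1.11 (adjusted p = 0.0418).

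The OSKM iPSC lines, made by transcription factors, could be tested for Jak1, Stat3 and Socs3 alone, because the other genes were measured in only 1 set with both groups. Of these 3, Stat3 and Jak1 were called, both lower, where 22.0% of 11406 genes were called and 10.0% were called lower. Stat3 read 61.5 in OSKM iPS1 and 45.9 in OSKM iPS2 and fitted at −3.62 ± 0.49 (SE, n = 2 against 7, adjusted p = 9.29e-06). Jak1 read 2374 and 6133 and fitted at −2.07 ± 0.32 (adjusted p = 5.31e-05). Socs3 read 3731 in OSKM iPS1 and 738 in OSKM iPS2, the second below MNF, MAF and ADSC, and was not called (−0.82 ± 0.81, adjusted p = 0.534). In OSKM iPS2, Lif read 106.7, Lifr 521 and Il6st 669.

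The SKM-FSK iPSC lines share a set with 1 somatic sample, MEF2, and the fit also draws on the other sets. Stat3, Il6st and Jak1 were called, all lower, where 15.2% of 16260 genes were called, 7.30% higher and 7.92% lower. Stat3 read 84.4 in SKM-FSK1 and 55.3 in SKM-FSK2, against 2691 in MEF2, 39.4-fold lower (fit −4.64 ± 0.61, adjusted p = 2.6e-05). Il6st read 1059 and 1166, against 12873 in MEF2 (−3.17 ± 0.79, adjusted p = 0.0117). Jak1 read 9555 and 8194, against 22215 in MEF2 (−1.51 ± 0.40, adjusted p = 0.0125). The second Jak1 probe gave −0.77 ± 0.50 (adjusted p = 0.389, limma) and was not called. The calls of Il6st and Jak1 were lost when either line was left out (Il6st adjusted p = 0.0755 and 0.0639, Jak1 adjusted p = 0.0534 and 0.102), whereas that of Stat3 held. They were also lost with no set term (Il6st −1.72, adjusted p = 0.137, and Jak1 −0.89, adjusted p = 0.187). With the numbers in the sample titles as a further term, the Il6st call was lost (−2.91, adjusted p = 0.0881, limma).

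Socs3 read 14618 and 14769 in the SKM-FSK lines, against 10540 in MEF2. Lifr read 2594 and 2231, against 2837 in MEF2, and Lif read 191 and 126, against 116 in MEF2. None of these 3 was called, with adjusted p between 0.69 and 0.913 (limma). The second Lifr probe (mMC008554) pointed the other way within the set, at 416 and 412 in the lines against 285 in MEF2. It was not called either (1.18 ± 0.75, adjusted p = 0.377, limma).

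Between CiPSC and ESC, 0 of the 6 genes were called, where 0.0303% of 16497 genes were called, 0.0303% higher and 0.00% lower. None of the 6 was above ESC in every set or below it in every set, as 3.05% and 2.57% of the genes were. None of the 6 had an unadjusted limma p under 0.05. The smallest was 0.0641 for Stat3, with a fitted difference of 0.66 ± 0.34, and the exact permutation p of Stat3 was 0.0533. CiPSC lines read above the ESC sample of their set for Stat3 in sets 1, 3 and 5 and overlapped it in set 2, where the ESC line was TT2. The other differences were −0.40 ± 0.50 for Il6st, −0.40 ± 0.68 for Lifr, −0.26 ± 0.57 for Socs3, 0.07 ± 0.22 for Jak1 and −0.01 ± 0.99 for Lif. A missed threshold does not show that the groups are alike, and for Lif the error spans nearly 1 log2 unit either way.

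For 12 induced lines the same set held a starting culture of the same origin. Stat3 was lower in 12 of 12 lines than in the starting cells of the same origin, from 4.89-fold in the CiPS control line to 48.7-fold in SKM-FSK2. In MAF CiPS3 it was 19.2-fold below MAF, in MNF CiPS1 6.94-fold below MNF and in ADSC CiPS2 7.34-fold below ADSC. Jak1, read by probe PH_mM_0014230, was lower in 12 of 12, from 2.25 to 6.64-fold. Il6st was lower in 8 of 8, from 1.72-fold in the CiPS control line and 2.71-fold in ADSC CiPS2 to 13.7-fold in MAF CiPS3.

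Socs3 was higher in 10 of 12 lines than in their starting cells, up to 3.47-fold in CiPS WT2. The exceptions were MAF CiPS3, 1.31-fold below MAF, and CiPS50, 1.06-fold below MEF1. Lif ran from 34.7-fold below ADSC in ADSC CiPS2 to 20.9-fold above MEF3 in the CiPS control line. Lifr ran from 1.61-fold below MAF in MAF CiPS3 to 15.5-fold above MEF3 in the CiPS control line, and was 2.97-fold above ADSC in ADSC CiPS2. Taken against MAF, the source that its other label names, ADSC CiPS2 was lower for all 6 genes. Lifr was then 3.79-fold and Socs3 2.34-fold below, and Socs3 was higher in 9 of 12 lines, while Stat3 (34.2-fold below), Il6st (17.7-fold below) and Jak1 (4.24-fold below) kept their direction. This alternative was chosen after the data were seen.

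**Figure D3:**
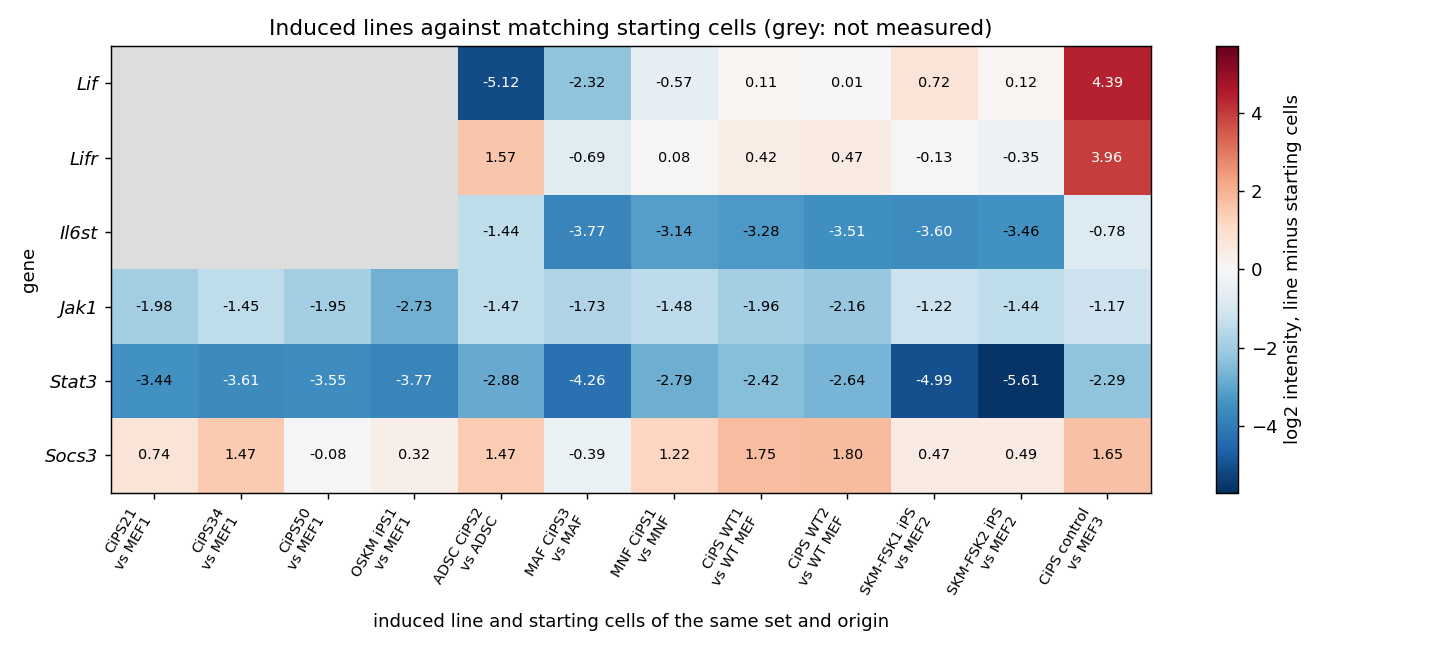
Log2 intensity of each induced line minus that of starting cells of the same origin in the same set, 1 sample on each side; blue is lower and red is higher in the line, and grey cells were not measured. The Stat3, Jak1 and Il6st rows are blue in every measured cell, and the Lif row runs from −5.12 to 4.39.

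Set 5 followed MEF through chemical treatment with 1 sample at each time, so no test was possible, and differences are given with values under 16 set to 16. At days 12, 20 and 32 the same 4 of 6 genes were at least 2-fold from MEF3. Lif, Lifr (by probe PH_mM_0007134) and Socs3 were higher and Stat3 was lower. Of all genes, 23.4, 24.2 and 27.1% were at least 2-fold higher and 29.5, 30.8 and 33.5% at least 2-fold lower at the 3 times. In the CiPS control line 3 of 6 were at least 2-fold above MEF3 and 2 below, against 26.6% and 34.0% of all genes. In ESC5 the counts were 3 and 1, against 28.9% and 35.6%.

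Stat3 read 1274 in MEF3, 471 at day 12, 315 at day 20 and 193 at day 32, then 261 in the CiPS control line and 127 in ESC5. It was thus 2.71, 4.05 and 6.61-fold below MEF3 at the 3 days, and day 32 lay below the established line. Il6st read 1513 in MEF3 and 1404, 1051 and 896 at the 3 days, with 879 in the CiPS control line. Its day 32 value was 1.69-fold below MEF3.

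Jak1 took another course. By probe PH_mM_0014230 it read 11532 in MEF3, 17867 at day 12, 17040 at day 20 and 12382 at day 32. By this probe, only the established CiPS control line (5115) and ESC5 (5790) were below MEF3. The fibroblast markers summed to 187% of MEF3 at day 12, 160% at day 20 and 129% at day 32, against 15.99% in the CiPS control line and 12.5% in ESC5. Single markers went both ways. Of the 18, 8, 7 and 7 were at least 2-fold above MEF3 at the 3 days and 5, 6 and 6 at least 2-fold below, with a median log2 difference of 0.72, 0.31 and −0.095. In the CiPS control line 1 was at least 2-fold above and 16 below. Their part in the Stat3, Il6st and Jak1 values was not tested.

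Lif read 72.1 in MEF3, 340 at day 12, 366 at day 20 and 261 at day 32, with 1507 in the CiPS control line and 947 in ESC5. Lifr read 62.6 in MEF3, 411, 529 and 1259 at the 3 days, 973 in the CiPS control line and 1358 in ESC5, so that day 32 was 20.1-fold above MEF3. The second Lifr probe was below MEF3 at days 12 and 20, and above it at day 32 by far less than the first probe. It read 19.0 in MEF3, 7.58, 10.7 and 28.4 at the 3 days, 187 in the CiPS control line and 98.3 in ESC5.

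Socs3 read 2120 in MEF3, 7921 at day 12, 7206 at day 20 and 15114 at day 32, with 6672 in the CiPS control line and 12795 in ESC5. It was 3.74, 3.40 and 7.13-fold above MEF3 at the 3 days, and day 32 was the highest of the 6 samples. Markers of extraembryonic endoderm summed to 272, 152 and 377% of MEF3 at the 3 days, and those of pluripotent cells to 46.1, 44.4 and 124%. Of 9 compared endoderm markers, 4, 5 and 7 were at least 2-fold above MEF3 and 1 below at each day (median log2 difference 0.46, 1.17 and 2.87). Of 10, 10 and 11 compared pluripotent markers, 2, 1 and 3 were at least 2-fold above and 4, 4 and 5 below. Their median log2 difference was −0.77, −0.70 and −0.89, so most did not rise with the sum at day 32. The part of these cell types in the Lif, Lifr and Socs3 values was not tested.

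**Figure D4:**
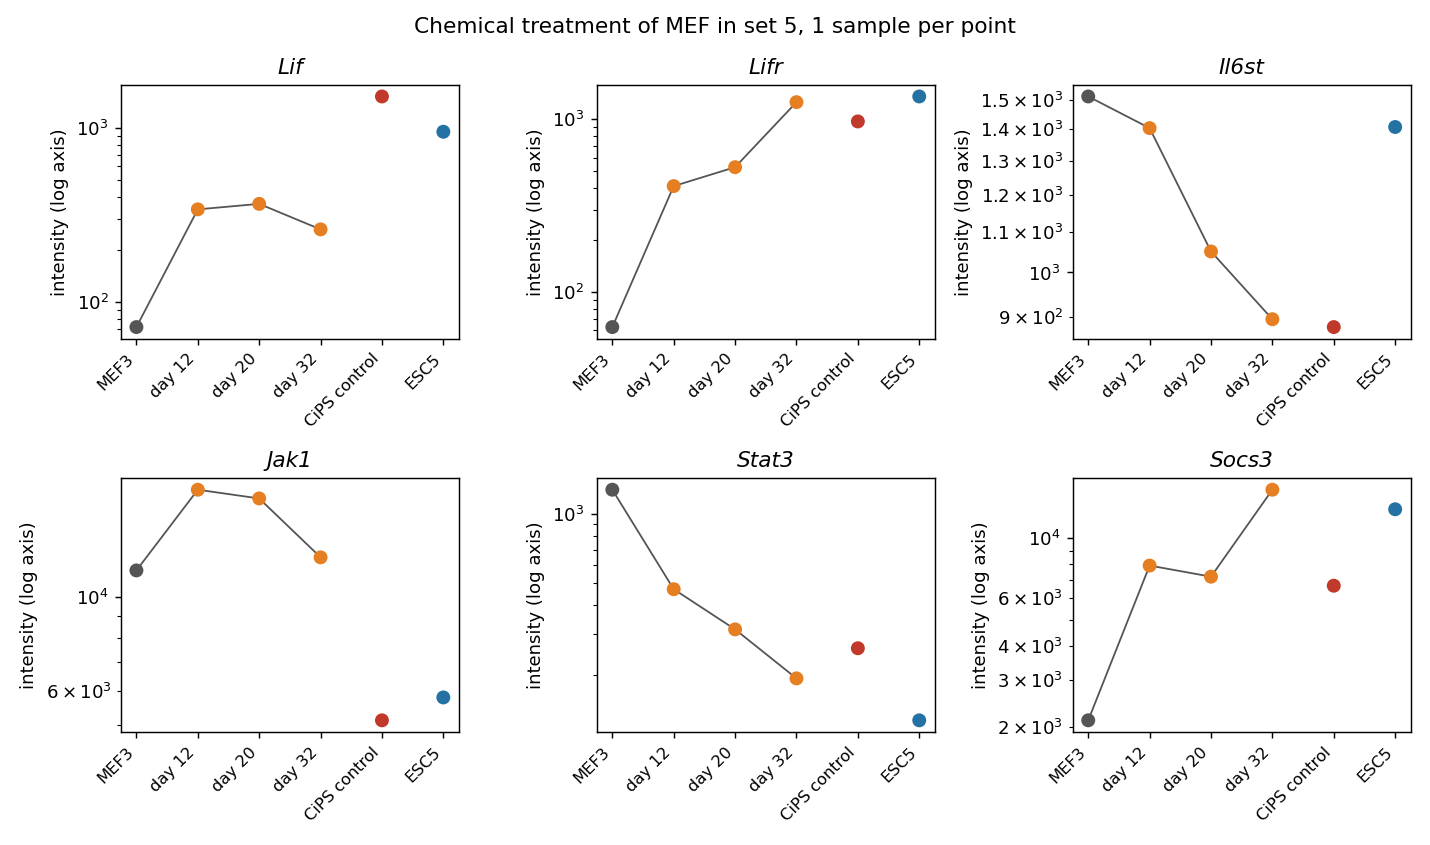
Intensity (log axis, a range of its own for each gene) in the 6 samples of set 5, 1 sample per point; the line joins MEF3 and days 12, 20 and 32. Stat3 and Il6st step down with time, Lif, Lifr and Socs3 are above MEF3 from day 12 on, and Jak1 is below MEF3 only in the CiPS control line and ESC5. Each gene is shown by 1 probe, and the second Lifr probe was below MEF3 at days 12 and 20.

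Other genes of the pathway were described by lists, read against the 28.0% of all genes called between CiPSC and somatic cells. Of 5 tested ligands of the gp130 family, 1 was called, Il11, lower by −2.65 ± 0.72 (adjusted p = 0.00539). Of 3 receptor chains, 1 was called, Osmr, the oncostatin M receptor, at −4.92 ± 0.46, against −5.49 ± 0.53 in ESC. Il6ra (−0.24 ± 0.29) and Il27ra (−0.04 ± 0.50) were not called. Both called genes act through gp130, as LIF does.

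Of 8 other Janus kinases and STATs, 2 were higher and 2 lower in CiPSC. Jak3 differed by 1.49 ± 0.37 and Tyk2 by 1.44 ± 0.34, whereas Jak2 differed by −2.16 ± 0.43 and Stat5b by −1.12 ± 0.27. In ESC 1 of 8 was higher (Jak3) and 1 lower (Jak2). The median over the list was 0.27, against −0.11 over all genes tested.

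Among 13 other inhibitors of the pathway, 3 were higher and 2 lower in CiPSC, and the counts were the same in ESC. The higher genes were Pias2, a STAT-binding SUMO ligase (2.16 ± 0.26), and the phosphatases Ptpn6 (2.07 ± 0.32) and Ptpn2 (1.62 ± 0.34). Ptpn1, another phosphatase (−1.92 ± 0.25), was lower, as was Cish, a relative of Socs3 (−1.43 ± 0.31), which was named after its value was seen. Socs1 (−0.83 ± 0.28) and Socs2 (0.52 ± 0.46) were not called.

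The MAPK and PI3K branch, which gp130 feeds through Ptpn11 and adaptors, had 1 of 10 genes higher and 3 lower in CiPSC, with a median of −0.57. The adaptor Gab1 was higher by 3.07 ± 0.26, against 3.40 ± 0.30 in ESC. Pik3r1, the regulatory subunit of PI3K (−2.47 ± 0.28), Akt1 (−1.95 ± 0.30) and Map2k2 (−1.04 ± 0.36) were lower.

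Genes taken here as targets of Stat3 were listed by cell type. Whether Stat3 acts on any of them was not measured, and other regulators can also drive them. Of 9 tested targets of naive stem cells, 7 were higher and 0 lower in CiPSC, with a median of 2.33 against −0.11 over all genes tested, and the counts were the same in ESC. Esrrb (8.64 ± 0.22) and Tfcp2l1 (7.32 ± 0.67), both transcription factors of the naive network, Gbx2 (2.91 ± 0.38) and the kinase Pim3 (2.80 ± 0.49) had the largest differences. Pim1 (0.66 ± 0.68) and Myc (0.29 ± 0.96) were not called. Esrrb and Tfcp2l1 are also among the markers of pluripotent cells, so these counts overlap.

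Of 14 tested targets of somatic cells, 8 were lower and 1 higher in CiPSC, with a median of −1.67, and 6 were lower and 1 higher in ESC. Cebpb (−3.26 ± 0.40), a transcription factor, the chemokine Ccl2 (−2.93 ± 1.03), the repressor Bcl6 (−2.70 ± 0.29) and the AP-1 subunit Junb (−2.24 ± 0.38) were lower. Icam1, an adhesion molecule named after its value was seen, was higher (2.12 ± 0.38). Fibroblast and feeder markers were lower in the same samples, and their part in these counts was not tested.

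**Figure D5:**
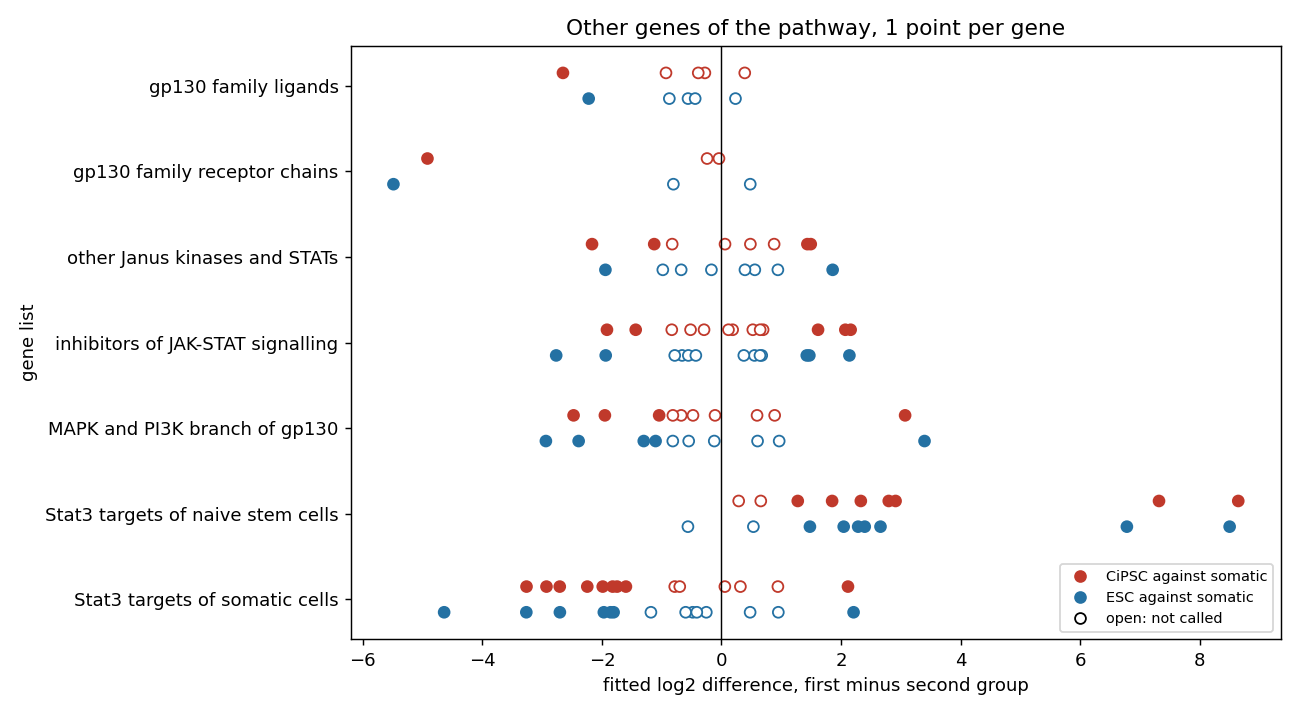
Fitted log2 differences of the other genes of the pathway in CiPSC (red) and ESC (blue) against somatic cells, 1 point per gene, filled where called. The 7 called targets of naive stem cells lie to the right of 0, and 8 of the 9 called targets of somatic cells in CiPSC lie to the left.

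The target lists were also read along the treatment in set 5. Among targets of naive stem cells, 3 of 8 compared genes were at least 2-fold above MEF3 at day 12, 5 of 8 at day 20 and 7 of 9 at day 32, with 0 at least 2-fold below. Of all genes, 23.4, 24.2 and 27.1% were at least 2-fold above MEF3 at these days. Gbx2 read 168 in MEF3, 156 at day 12, 1134 at day 20 and 1246 at day 32. Esrrb read 91.0 in MEF3 and 48.2, 97.2 and 1125 at the 3 days, against 25958 in the CiPS control line. Neither was above MEF3 at day 12, when Socs3 was 3.74-fold above it.

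Myc read 377 in MEF3 and 1674, 1540 and 1717 at the 3 days. Pim1 read 3231 in MEF3 and 4211, 5100 and 7920 at the 3 days, but 68.5 in the CiPS control line and 197 in ESC5. Tfcp2l1, called higher over all sets, read 14.6 in MEF3, 18.7 in the CiPS control line and 17.3 in ESC5, all near the floor of 16 used in set 5. Among targets of somatic cells, 4, 3 and 5 of 14 were at least 2-fold above MEF3 at the 3 days and 0, 0 and 1 at least 2-fold below. The shares of all genes were 23.4, 24.2 and 27.1% above, close to the shares of this list, and 29.5, 30.8 and 33.5% below. In the CiPS control line 9 of 14 were at least 2-fold below MEF3, as were 34.0% of all genes.

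Genes whose set-centred log2 intensity followed each member most closely were ranked by Pearson's r, as a description across samples that share sets and groups. Stat3 was followed by Emilin1, P3h3 and C1qtnf2 (each r = 0.94, 30 samples) and Jak1 by Amotl1 (0.97), Acat1 (0.95) and Fads1 (0.95). Il6st was followed by Nfia (0.94), Scara3 (0.94) and Hspa12b (0.93) over 23 samples. Among the members, Il6st and Stat3 had r = 0.88, Il6st and Jak1 0.82, and Jak1 and Stat3 0.81. Socs3 had no close companion. Its nearest genes were Arrdc4 (0.64), Meak7 (0.63) and Unc13a (0.63), and its r was −0.09 with Stat3 and 0.46 with Lifr. Lif was nearest to Defb37 (0.84), Fermt2 (0.84) and Pgf (0.82), and Lifr to 0610030E20Rik (0.85), Dapk1 (0.85) and Mier1 (0.84).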

How the data were processed

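Cy5-labelled RNA of 30 mouse samples was measured on whole-genome oligonucleotide arrays, per the labels. The authors deposited linear intensity values, 1 column per sample, normalized separately in 5 sets per the series' design text and with no statement, in the sources used here, of how background was corrected or probes were removed. Probes were named from the platform annotation (21876 of 26423 have 1 gene, 4547 none), and 21825 gene IDs matched RefSeq. Where probes shared a gene, the one with values in most samples, then the brightest, stood for it. Intensities were converted to log2 with a floor of 1e-04.

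Groups were compared with limma 3.58.1 in R 4.3.3, with group and set as terms over 30 samples, with Benjamini-Hochberg adjustment across the genes of a comparison. A gene needed values in at least 2 sets holding both groups (1 for SKM-FSK iPSC) and 3 residual degrees of freedom. Each fit was tested on simulated data. Exact permutations, two-sided, shuffled labels within sets. The number of arrays limits the precision. The 6 genes and all lists were chosen with earlier results of these data known. Of each list up to 4 called and 2 uncalled genes were named, and the 3 genes closest in pattern to each member. Alternatives covered normalization, centring, filters, floors, probe choice, design terms, and samples or sets left out.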

Additional observations from a re-analysis of the deposited data

Results flagged for a closer look

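Among 24 groups of 4 to 10 samples tested for a sample far from the others, 2 held such a sample, and chance gives about 1 in 20. Jak1 in CiPS34 read 5754, above the 3990 to 4245 of the other 3 CiPSC lines of set 1. Stat3 in MAF CiPS3 read 95.5, above the 51.7 to 53.7 of the other 3 CiPSC lines of set 2. The somatic sample of the same origin, MAF, also read highest of the somatic samples of the set, at 1835.

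Lif in CiPSC against somatic cells pointed opposite ways between sets. All 4 lines lay below the 3 somatic samples in set 2 (log2 difference −2.62), while the single line of set 5 lay above its MEF (4.39). Both lines of set 3 lay barely above theirs (0.060). The difference between sets was not tested.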

How the results depend on the processing

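Of 980 recomputed values, 938 were counted as unchanged. For the difference of a gene this meant the same direction and side of the threshold. Counts of called members were allowed a small move, such as from 3 to 4. Stat3, Il6st and Jak1 stayed lower and called in CiPSC and in ESC against somatic cells under every alternative run, as did Stat3 and Jak1 in OSKM iPSC. These runs used the probe that stood for the gene or the mean of its probes. Taking every probe as a unit kept that same probe, so it could not test the choice. The second Jak1 probe was not called in CiPSC (−0.17, adjusted p = 0.768, limma) or in ESC (−0.51, adjusted p = 0.320, limma). The replicate block, with sample numbers as a term, kept 3 calls in CiPSC and ESC but left 2 in SKM-FSK iPSC (Il6st −2.91, adjusted p = 0.0881). Residual correlations of same-numbered samples ran from −0.40 to 0.38. They cannot decide whether the numbers pair samples, because groups of 2 samples have mirrored residuals in this fit.

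Uncalled differences changed sign as follows. Lif in CiPSC against somatic cells was 2.01 with MEF as the only somatic samples and 1.93 with set 2 left out, and ran from −1.50 to 0.11 with 1 sample left out. Lif in ESC against somatic cells was 1.30 with MEF only, 0.25 with R1 only and 1.37 with set 2 left out, and ran from −1.68 to 0.25 with 1 sample left out. Lif in SKM-FSK iPSC was 0.57 with the replicate block, 0.55 with MEF only and 0.58 with set 2 left out. Between CiPSC and ESC, Lif was 0.80 with only these groups fitted or permuted, 0.56 without set 2, 0.27 without set 4 and 0.038 without set 5 (−0.90 to 0.56 with 1 sample left out). Jak1 was −0.040 with no set term, −0.12 with the replicate block, −0.026 with R1 only and −0.0099 without set 2 (−0.026 to 0.17). Socs3 was 0.17 without set 2 (−0.60 to 0.0041), and Lifr ran from −0.77 to 0.092. The causes were not tested.

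In SKM-FSK iPSC the members called were 1 with no set term and 1 to 3 with 1 sample left out. With set 2 left out, 4 were called in CiPSC (beside 4318 of 15857 genes) and in ESC (4896 of 15869) against somatic cells, the added gene being Socs3. With MEF only, 4 were also called in each. The added gene was Lif in CiPSC (4648 of 15857 genes) and Lifr in ESC (5195 of 16464 genes). Genes called between CiPSC and ESC numbered 5, and 51 with R1 only, 42 without set 2, 2 with no set term or only these groups, 1 without set 1 or set 4, and 0 without set 3. Other counts that moved were 3067 against 4838 in ESC and 1183 against 2515 in OSKM iPSC with only the groups compared, and in SKM-FSK iPSC 3917 with no set term and 1079 or 1100 without either line, against 2475. MEF as the only somatic samples left 1 set for OSKM iPSC and was not run there, and exact permutations in OSKM and SKM-FSK iPSC could not reach 0.05. No detection calls were used, which limits dim probes.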
